A study of Homo sapiens with 2 samples.

Results

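The 10 interferon-stimulated genes IFIT1, IFIT2, IFIT3, IFIT5, IFI6, IFI27, IFI35, IFI44, IFI44L and ISG15 were followed in PC3 cells given fluphenazine and in PC3 cells given DMSO. They were taken by name from the platform's probe annotation, every probe set naming a listed gene being kept. This gave 14 probe sets for 10 of 18392 genes, and none of the 14 named a second gene. All 14 were lower on the fluphenazine array than on the DMSO array, beside 52.7% of all probe sets above a floor on signal.

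The study hybridised 2 microarrays, 1 with RNA of PC3 cells given 10 µM fluphenazine and 1 with RNA of PC3 cells given the solvent DMSO. PC3 is a human prostate adenocarcinoma line, taken from a metastasis in bone, that grows without androgen, and fluphenazine is an antipsychotic of the phenothiazine class that acts on dopamine receptors. Per the labels, the cells of both groups were kept in RPMI-1640 with fetal bovine serum, without a stated treatment time or number of cultures per array. Each treatment has a single array, so no difference below has a test, a standard error or a replicate, and the number of arrays limits the precision.

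Type I and type III interferons bind their receptors on the cell surface and, through the kinases JAK1 and TYK2, lead to a complex containing IRF9 that enters the nucleus. That complex binds the interferon-stimulated response element (ISRE) in the promoters of a large set of genes. The members described here are among its best known targets. The IFIT proteins bind viral RNA, ISG15 is a ubiquitin-like protein that is attached to other proteins, and the IFI genes encode a mixed group of small membrane proteins and cytosolic proteins. Many tumour lines express such genes at rest, without added interferon.

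The promoters of the members are shown first, because the ISRE is the feature these genes are known to share. The members were chosen by name, but as known targets of the complex that binds the ISRE. The share with a match is therefore not independent of that choice. The sequences are from RefSeq on GRCh38.p14, which gave windows reaching 250 bases before and 50 bases after the annotated start site for 9 members, all but IFIT2. Both strands were searched for the ISRE motif, spelled TTTC, any 2 bases and TTTC, or on the other strand GAAA, any 2 bases and GAAA, and overlapping matches were counted separately. At least 1 match was found for 8 of the 9 members, against 4.38% of the 27305 genes in the promoter table. The stretches printed lie upstream of the start site, read 5′ to 3′ along the gene's strand, and the capitals mark the matches.

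IFIT1: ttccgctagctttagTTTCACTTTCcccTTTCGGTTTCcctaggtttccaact
IFIT3: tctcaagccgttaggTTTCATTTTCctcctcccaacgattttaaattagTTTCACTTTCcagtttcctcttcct
IFIT5: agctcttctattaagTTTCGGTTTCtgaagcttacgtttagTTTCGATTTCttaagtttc
ISG15: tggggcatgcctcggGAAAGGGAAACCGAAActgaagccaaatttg
IFI6: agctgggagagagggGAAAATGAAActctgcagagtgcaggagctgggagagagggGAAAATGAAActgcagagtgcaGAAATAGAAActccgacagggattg
IFI27: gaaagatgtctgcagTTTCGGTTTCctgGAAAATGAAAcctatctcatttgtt
IFI44: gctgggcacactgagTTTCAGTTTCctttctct
IFI44L: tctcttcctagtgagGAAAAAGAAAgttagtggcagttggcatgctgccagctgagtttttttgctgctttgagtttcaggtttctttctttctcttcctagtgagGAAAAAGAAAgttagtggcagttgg
IFI35: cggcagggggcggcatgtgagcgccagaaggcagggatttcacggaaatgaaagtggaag

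The IFIT stretches lie on the plus strand of chromosome 10, at chr10:89392492-89392544 for IFIT1, chr10:89327826-89327899 for the first start site of IFIT3 and chr10:89414508-89414567 for IFIT5. On chromosome 1 the stretch of ISG15 is at chr1:1013369-1013414 on the plus strand and that of IFI6 at chr1:27672261-27672363 on the minus strand. Those of IFI44 and IFI44L, also on the plus strand of chromosome 1, are at chr1:78649756-78649788 and chr1:78620269-78620399. The IFI27 stretch is at chr14:94110613-94110665 and the IFI35 stretch, the last 60 bases before its start site, at chr17:43006724-43006783, both on the plus strand.

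The matches of a gene differ in number and spacing. IFIT1 holds 2 matches that begin at -116 and -103 from the start site, and the 2 of ISG15 overlap, beginning at -113 and -107. IFI6 holds 3, of which 2 lie in a repeated stretch. IFIT5 also holds 3, the closest of them spanning the start site and therefore not printed, while IFI44 holds 1, which begins at -18. A second start site of IFIT3, whose stretch is not printed, has 2 matches of its own. IFI27 and IFI44 also have a second annotated start site, whose window overlaps the first and holds the same matches. Counted from it, the match of IFI44 begins at -60. IFI35 has no exact match in this window, and sequences that depart from the spelling of the motif were not counted for any gene. The shorter gamma-activated site TTCNNNGAA, which reads the same on both strands, was found for IFI27 and IFI35, beside 9.38% of genes in the table. In IFI27 it overlaps both ISRE matches.

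**Figure D1:**
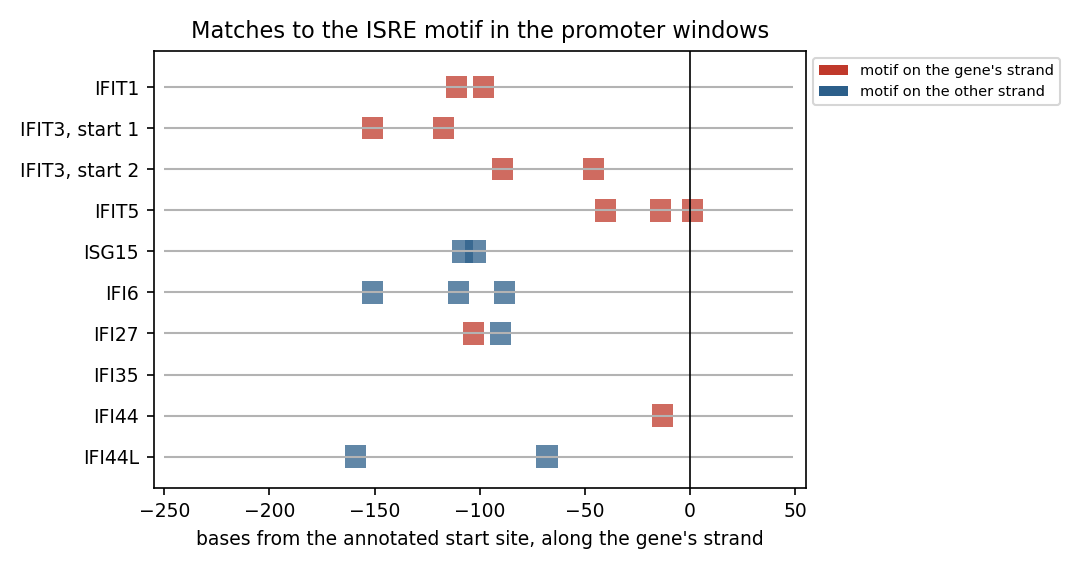
Each line is the promoter window of a member, with position in bases from the annotated start site (0) along the gene's strand, and each block is a match to the ISRE motif, coloured by strand. Of the 9 members with a window, 8 hold at least 1 exact match and IFI35 holds none. Near matches were not counted, and IFIT3 has a line for each of its start sites. For IFI27 and IFI44 only the first of their overlapping windows is drawn.

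The deposited values are 1 log2 signal per probe set and array, and each difference is the fluphenazine value minus the DMSO value. A gene was counted as above the floor when at least 1 array gave it a log2 signal of 6.19, which 9196 of the 18392 genes reached. The floor is a rank and not a detection call, and all 10 members were above it. A gene with more than 1 probe set was read by its brightest, judged by the mean over the arrays. For genes with several probe sets above the floor, each probe set's difference was compared with the mean difference of its gene. The pooled SD about that mean was 0.13 on the log2 scale over 3668 genes. It describes noise within the arrays and holds no variation between cultures.

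The IFIT genes encode proteins built of tetratricopeptide repeats, and their genes form a cluster on chromosome 10. IFIT1, which recognises RNA caps that lack the methyl marks of host mRNA, had a log2 signal of 10.41 with fluphenazine and 10.98 with DMSO. Its difference of -0.57 made it 1.49-fold lower, the 30th lowest of the 9196 genes. IFIT3, which binds IFIT1 and stabilises it, was read by 2 probe sets. The brighter, 229450_at, gave 10.87 with fluphenazine and 11.11 with DMSO, a difference of -0.24. The other, 204747_at, gave 9.37 with fluphenazine and 9.87 with DMSO, a difference of -0.50. Both probe sets of IFIT3 were thus lower, but by amounts 0.26 apart. The pooled SD is that of 1 probe set about its gene's mean, and a gap between 2 probe sets scatters more widely than that.

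IFIT2, a partner of IFIT1 and IFIT3 that binds AU-rich RNA, had the smallest difference of the 10 members. Its brighter probe set, 226757_at, gave 10.71 with fluphenazine and 10.83 with DMSO, or -0.12, smaller in size than the pooled SD. Its other probe set, 217502_at, gave 7.12 with fluphenazine and 7.47 with DMSO, or -0.34. For IFIT2 the size of the difference therefore depends on which of the 2 probe sets is read. The pooled SD does not measure the error of a difference from 0. IFIT5, which binds RNA with a terminal triphosphate, gave 8.31 with fluphenazine and 8.54 with DMSO on 203595_s_at, a difference of -0.22. The second probe set of IFIT5, 203596_s_at, gave 8.23 with fluphenazine and 8.52 with DMSO, a difference of -0.30. These 2 lay 0.07 apart, the closest agreement among the 4 members with 2 probe sets.

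ISG15 is made as a precursor, conjugated to newly made proteins and also secreted. Its single probe set gave 12.48 with fluphenazine and 12.98 with DMSO. The difference of -0.51 leaves 70.4% of the DMSO signal on the linear scale and ranked 47th lowest among the 9196 genes.

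IFI6 and IFI27 encode small hydrophobic membrane proteins of the same family, and IFI6 is known to restrain cell death and the replication of flaviviruses. IFI6 had 11.88 with fluphenazine and 12.29 with DMSO, a difference of -0.41 or 1.33-fold. IFI27 had 11.79 with fluphenazine and 12.07 with DMSO, a difference of -0.28 or 1.21-fold. Both were lower with fluphenazine and both had a single probe set, so no second reading within the array was available.

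IFI35, a leucine zipper protein of the cytosol, had 8.39 with fluphenazine and 8.89 with DMSO, a difference of -0.51. It was thus lower by nearly the same amount as ISG15. Its promoter window is the one without an exact match to the ISRE motif, and near matches were not searched for. IFI44 and IFI44L are neighbouring paralogues on chromosome 1. IFI44 had 9.16 with fluphenazine and 9.73 with DMSO on 214453_s_at, a difference of -0.57 that ranked 34th lowest. On its dimmer probe set, 214059_at, it had 6.38 with fluphenazine and 6.65 with DMSO, a difference of -0.27. IFI44L had 9.89 with fluphenazine and 10.20 with DMSO, a difference of -0.31. For IFI44 the brighter probe set gave the larger difference, whereas for IFIT2, IFIT3 and IFIT5 the dimmer one did.

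**Figure D2:**
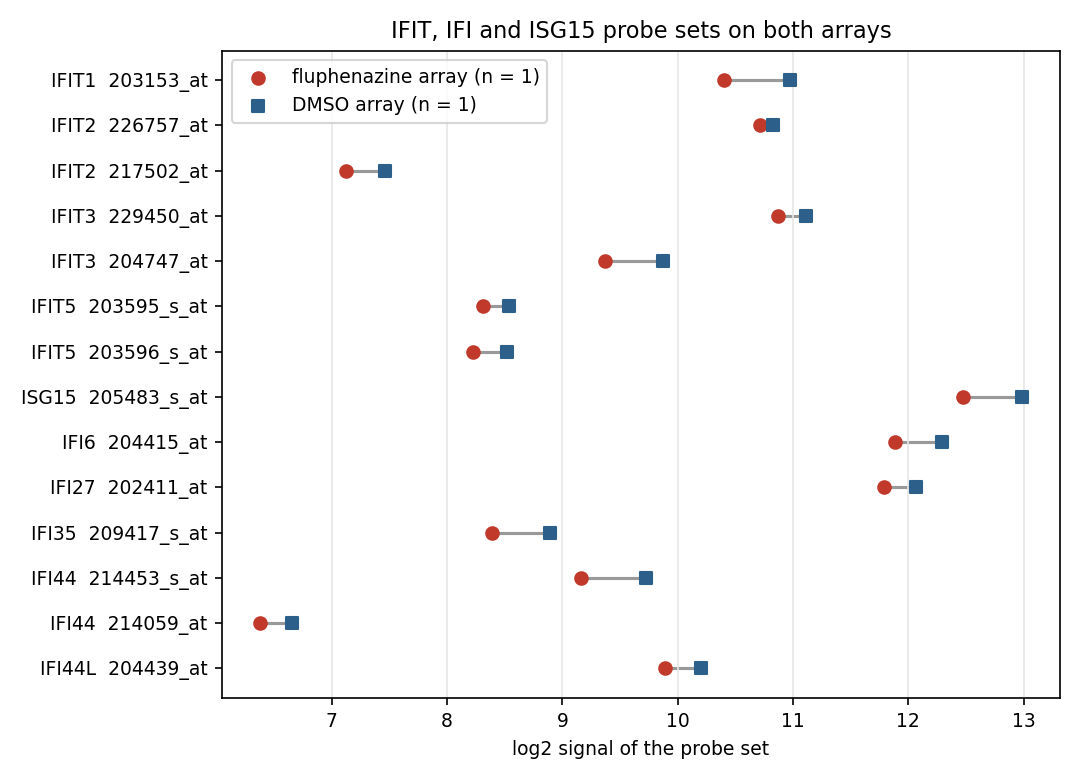
Each row is a probe set of a member, with its log2 signal on the fluphenazine array (circle) and on the DMSO array (square), 1 array each. In all 14 rows the fluphenazine value is the lower one, by 0.12 for IFIT2 on 226757_at up to 0.57 for IFIT1.

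Taken over the 10 members, the median difference was -0.36, or 1.28-fold lower, beside -0.01 over all 9196 genes above the floor. All 10 members were below 0, beside 51.8% of all genes. The planned threshold was 1.5-fold, with 1.2-fold as an alternative, and members and fold were chosen with earlier results of these data known. At 1.5-fold 0 of the 10 members were lower, beside 0.294% of all genes, and IFIT1 and IFI44, at 1.49-fold and 1.48-fold, came closest. At the alternative threshold of 1.2-fold, 7 members were lower and 0 were higher, beside 4.69% of all genes lower and 4.84% higher. The differences were thus small in size and shared in direction. Read by their brightest probe sets, the 4 IFIT genes had a median of -0.23, with IFIT1 lower than the other 3, and the 6 remaining members had a median of -0.46. The gap depends on the probe sets read. Averaged over probe sets, IFIT2, IFIT3 and IFIT5 were lower, at -0.23, -0.37 and -0.26, and IFI44 was less low, at -0.42. Counted by probe set, 11 of 14 were lower by at least 1.2-fold, beside 5.38% of the 14662 above the floor. An array of mixed cells cannot tell fewer cells expressing these genes from less RNA per cell.

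Of 3780 genes with a mean log2 signal under 8, none of them a member, 7.28% were lower by at least 1.2-fold. The members, all brighter, were also set beside genes of like brightness, in bands chosen after their values were seen. Of 1718 genes with a mean log2 signal of at least 10, 42 (2.44%) were lower by at least 1.2-fold. Those 42 include 5 of the 7 members in that band, IFIT1, ISG15, IFI6, IFI27 and IFI44L, and a further 9 genes of the interferon lists described below. Of 3698 genes between 8 and 10, 114 (3.08%) were lower by 1.2-fold, among them IFI35 and IFI44 but not IFIT5.

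**Figure D3:**
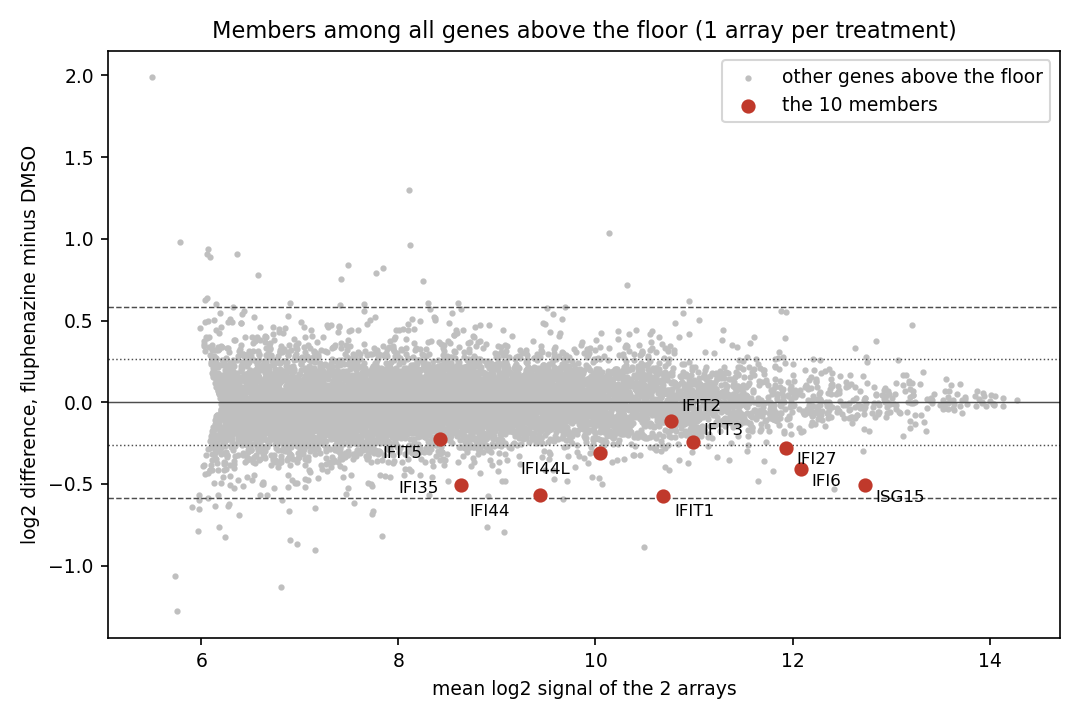
Each point is a gene above the floor, with the mean log2 signal of both arrays on the horizontal axis and the log2 difference, fluphenazine minus DMSO, on the vertical axis. Dotted lines mark 1.2-fold and dashed lines 1.5-fold. The 10 members, in red, all lie below 0, between -0.12 for IFIT2 and -0.57 for IFIT1, and none passes the lower dashed line.

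Control probe sets moved on the same array pair. The 24 poly-A spike-in probe sets, which read bacterial RNA put into each sample ahead of labelling, were all lower with fluphenazine, with a median difference of -0.22 and a lowest of -0.37. Their 8 probe sets at the 5′ ends had a median of -0.34 and their 8 at the 3′ ends one of -0.12. The 18 hybridization controls had a median of -0.07. Their part in the members' differences was not tested. Read by their brightest probe sets, IFIT1, ISG15, IFI6, IFI35 and IFI44 lay below the range of the spike-ins, and IFIT2, IFIT3, IFIT5, IFI27 and IFI44L lay inside it. The median over all 9196 genes was -0.01. Of the epithelial markers that PC3 should express, 6 of 6 were above the floor. The adhesion protein EPCAM was at 0.07, while the keratins KRT8 and KRT18 were at -0.42 and -0.13. Of 6 leukocyte markers measured 0 were above it, and of 3 endothelial and 4 fibroblast markers only PECAM1 (-0.27) and COL1A1 (0.00) were. The summed signal of the leukocyte markers was 6.62 with fluphenazine and 6.45 with DMSO on the log2 scale. The endothelial sum was 8.59 with fluphenazine and 8.83 with DMSO, and the fibroblast sum was 8.57 with fluphenazine and 8.54 with DMSO. The epithelial sum was 14.71 with fluphenazine and 14.73 with DMSO.

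The genes next to the members on the chromosome were read as a comparison, which was added after the members' values were known. The nearest 2 measured protein-coding genes on each side of the 6 member loci gave 24 genes, of which 18 were above the floor. Of these, 0 were lower by at least 1.2-fold, beside 4.69% of all genes, a share under which a set of this size would hold few such genes or none. Their median was -0.03. They ranged from -0.20 for HES4, beside ISG15, to 0.13 for AGRN, on its other side. The flanks of the IFIT genes gave 0.08 for LIPA, a lysosomal lipase, and -0.16 for PANK1, a kinase of coenzyme A synthesis. IFI27 lies between IFI27L1 and IFI27L2, relatives by sequence, which differed by 0.03 and -0.03.

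Of 4 measured genes that attach ISG15 to proteins 3 were below 0, as was USP18, which removes it. The ligase HERC5 had 8.79 with fluphenazine and 9.22 with DMSO, a difference of -0.42 that ranked 91st lowest. The conjugating enzyme UBE2L6 had 10.75 with fluphenazine and 11.12 with DMSO, a difference of -0.37. TRIM25, a ubiquitin ligase that can also act with ISG15, was at -0.26, just short of 1.2-fold, and its dim second probe set, under the floor, was at 0.00. The protease USP18, which also dampens the interferon receptor, was at -0.18. ARIH1, a ligase with many other substrates, was at 0.06 on its brightest probe set. Its other probe sets above the floor lay between -0.08 and 0.00, so its direction depends on the one read. Over the 5 genes the median was -0.26, with HERC5 and UBE2L6 past 1.2-fold. The activating enzyme UBA7 was not analysed here.

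Genes that share the IFI or IFIT part of the name did not all lie with the members. Of 6 measured, 5 were below 0 and the median was -0.21. IFITM1, IFITM2 and IFITM3, which hinder the entry of viruses at membranes, were at -0.53, -0.30 and -0.30. The nuclear DNA sensor IFI16 was at -0.11 on its brightest probe set, -0.16 on another and -0.73 on the dimmest, so its probe sets disagreed. The IFITM genes are similar in sequence, which was not compared here, and their probe sets may share signal.

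Upstream of the members, the receptors and signalling genes showed no common direction. Of 14 above the floor, 5 were below 0 and 9 above it, with a median of 0.03. The receptor chains IFNAR1, IFNAR2 and IFNLR1 were at -0.07, 0.03 and 0.07. TYK2 was at 0.02. IRF9, the DNA-binding part of the complex that acts at the ISRE, had 9.89 with fluphenazine and 9.85 with DMSO, a difference of 0.04. IRF7, itself an interferon-stimulated gene, had 9.33 with fluphenazine and 9.63 with DMSO, a difference of -0.30 and the only one of the 14 lower by 1.2-fold. The interferon gamma receptor chain IFNGR1, at 0.28 on one probe set and 0.31 on the other, was the only one higher by 1.2-fold. The probe sets of JAK1 above the floor disagreed, from -0.20 to 0.24. Of 11 interferon genes measured, 0 were above the floor, and the highest value was 4.04, for IFNL1 with fluphenazine.

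Other interferon-stimulated effectors, a list of 30 genes with 28 above the floor, gave a median of -0.36, the same to 2 decimals as the members. Of the 28, 27 were below 0, 19 were lower by at least 1.2-fold and 4 by at least 1.5-fold. The shares of all genes above the floor were 51.8%, 4.69% and 0.294%. The 4 were MX2 at -1.13, TRIM22 at -0.84, OAS2 at -0.66 and OAS1 at -0.59. MX2 and TRIM22, at 6.24 and 6.48 with fluphenazine, were near the floor of 6.19 on that array. Of all 27 genes lower by 1.5-fold, 23 had a mean log2 signal under 8, where differences were more often large. On the other probe sets above the floor OAS2 was at -0.50 and OAS1 at -0.38, short of 1.5-fold, while PARP9 and OASL, at -0.47 and -0.46 on their brightest, were at -0.88 and -0.65 on the dimmer. The probe sets of GBP1, an interferon-induced GTPase counted as lower, disagreed, at -0.35, 0.23 and 0.50. PARP9, OASL and GBP1 are named after their values were seen. The RNA sensor IFIH1 was at 0.00. This list and the members share their arrays and were chosen with earlier results of these data known, and with 1 array per treatment the difference between lists has no test.

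**Figure D4:**
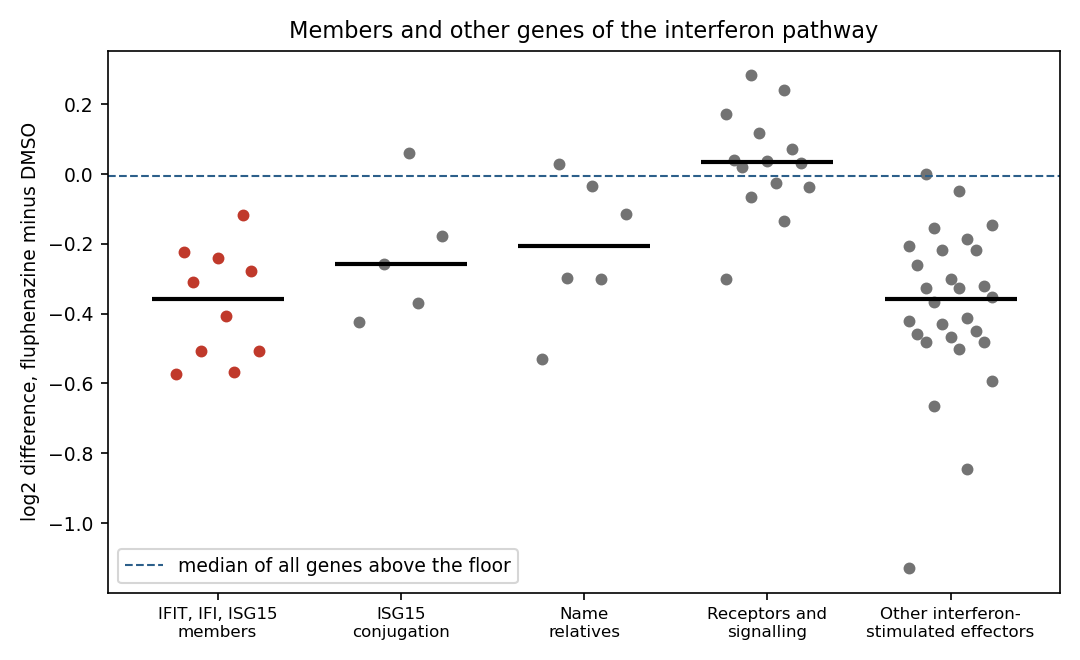
Each point is a gene above the floor and each bar the median of its list, with the log2 difference, fluphenazine minus DMSO, on the vertical axis. The dashed line, at -0.01, is the median over all genes. The members and the other effectors both have medians of -0.36, ISG15 conjugation genes -0.26, name relatives -0.21, and receptors and signalling genes 0.03.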

How the data were processed

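The authors deposited 1 log2 signal per probe set and array. The submitters' processing notes name RMA, Transcriptome Analysis Console 3.1 and Affymetrix Expression Console 1.4, without saying what each did. Per the labels' protocols, RNA was labelled with a whole-transcript kit, whereas the probe sets are those of an array that reads transcripts near their 3′ ends, and the labels do not say how the kit was used with it. The log2 scale was judged from the range of the deposited values, 1.60 to 14.28. The sorted columns differed by at most 0.13, so a difference is relative to the rest of the array and says nothing of total RNA. Of 47693 probe sets, 37145 named exactly 1 gene in the platform annotation of 2016, and symbols were updated through the gene identifier to RefSeq. No coordinate of the authors' was used, and promoter coordinates are those of RefSeq.

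Samples were grouped by the agent in the labels. Differences, counts and medians were computed in Python 3.11.15 with numpy 2.4.6 and pandas 2.3.3, and other scalings with limma 3.58.1 in R 4.3.3. The calculation was tested on simulated data with known changes, with noise set lower than in these arrays and calls checked at 1.5-fold only. That tests the calculation and says nothing of the certainty of the counts. The members, the lists and the fold were chosen with earlier results of these data known, and the planned fold was 1.5. All members and all their probe sets are named. From each list, up to 3 genes in the direction of its median, 1 the other way, and any gene of the shorter lists could be named. The alternatives were 3 other scalings, averaged probe sets, 2 other floors, 2 other folds, every probe set, the mean, and leaving out the most extreme member. A planned comparison of the proteins was not run, and protein sequences were not used here.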

Additional observations from a re-analysis of the deposited data

How the results depend on the processing

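The members stayed below 0 under quantile normalization, median centring, loess scaling and, for the 4 with several probe sets, averaging, in 34 of 34 values. Averaging could not have changed a sign, because all 14 probe sets were below 0. The scalings left IFIT2, the member nearest 0, between -0.12 and -0.11, shifts too small to change the sign of any member. A change of floor cannot alter a difference, and all 10 members remained above the stricter floor at the 75th percentile. Their median ranged from -0.39 with averaged probe sets to -0.31 without IFIT1, the most extreme member, and all genes had a median between -0.02 and 0.00. The count of members lower depends on the fold: it was 0 at 1.5-fold and 7 at 1.2-fold. Averaging the probe sets moved IFI44 to -0.42 and IFIT3 to -0.37, by more than the pooled SD of 0.13, and left 8 members lower by 1.2-fold. The medians of the lists moved by less than that SD, over ranges of -0.31 to -0.18 for ISG15 conjugation, -0.30 to -0.20 for name relatives, -0.38 to -0.34 for other effectors and 0.03 to 0.08 for receptors and signalling. No array could be left out, and no list median could be given for the interferon genes themselves, none of which was above the floor. No paired analysis was possible because each treatment has 1 array.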

Other observations

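Genes were also split by the ISRE motif in their promoter windows, a split made after the members' values were seen. Of 299 genes above the floor with a match, 10.4% were lower by at least 1.2-fold with fluphenazine, beside 4.12% of 7401 genes without one. The shares higher by 1.2-fold were 6.02% with a match and 4.38% without. The median difference was -0.01 for both. After the members and the listed interferon genes were left out, 272 genes with a match remained, of which 4.41% were lower and 6.62% higher by 1.2-fold. They were not left out of the genes without a match. Genes above the floor that had no promoter window, such as IFIT2, are in neither group. For the gamma-activated site, 4.72% of 657 genes with a match and 4.33% of 7043 without were lower by 1.2-fold.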
